A study of Mus musculus with 48 samples.

Results

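The proteasome genes described here are those for subunits of the proteasome, its activators, its inhibitor and its assembly chaperones. They were taken as all genes whose symbol, alone on its probe set in the platform annotation, starts with Psma, Psmb, Psmc, Psmd, Psme, Psmf or Psmg followed by a number, leaving out the immunoproteasome genes Psmb8, Psmb9 and Psmb10. This gave 44 of the 18193 genes with such a probe set, each represented by its probe set with the highest mean signal. Of these, 43 passed the filter on dim probe sets, as did 13018 genes in all. The exception was Psmb11, a beta subunit known from the thymus, whose mean log2 signal of 8.33 lay below the array medians. Psme2, the partner of Psme1, shares its probe set with a second symbol and is therefore not among the 44.

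The proteasome is the main protease of the cytosol and nucleus and degrades proteins tagged with ubiquitin chains. Its core particle is a barrel of alpha rings, which form the gates, around beta rings, which hold the proteolytic sites. A regulatory particle with a ring of ATPases and further non-ATPase subunits binds the ubiquitin chain, removes it and threads the substrate into the core, and other activators can dock on the same gate. In mammalian cells the genes of the subunits are transcribed together, in part through the transcription factor Nfe2l1, and fibroblasts express them at all times.

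RNA came from mouse embryonic fibroblast lines made from littermate embryos of embryonic day E14.5 on a mixed 129/B6 background, from the body without head and organs. One line had Zfp36 (Zfp36 +/+, called WT) and the other lacked it (Zfp36 -/-, called KO). Zfp36 encodes tristetraprolin (TTP), an RNA-binding protein that speeds the decay of messengers with AU-rich elements. By the labels each genotype appears to be 1 line, so that a difference between lines and an effect of Zfp36 cannot be told apart. All cells were held for 16 h in 0.5% fetal bovine serum and then given 10% for 90 min, after which the transcription inhibitor actinomycin D was added. Its dose reads 5 ug/ml in the study's description but 0.5 ug/ml in the names of the samples. Each sample pooled 3 dishes of 100 mm, taken at 0, 30, 60, 90 or 120 min of actinomycin D. There were 5 experiments, each on its own day and with both lines handled together. Each of the 10 groups holds 5 arrays, apart from KO at 0 min (4, without replicate 5) and KO at 60 min (4, without replicate 4), 48 arrays in all. The question the design asks is which transcripts fall more slowly without TTP.

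The values are log2 signals from Affymetrix Mouse Genome 430 2.0 arrays. Array medians lay between 8.47 and 8.56 and the highest 5th percentile of an array at 8.13, so values near 8 carry little signal. At 0 min the Zfp36 probe set gave 9.51 ± 0.16 (SD, n = 4) in KO and 9.86 ± 0.16 (SD, n = 5) in WT, but no source used here says whether the probe set lies in the deleted sequence, so it does not check the genotype. Of 11 fibroblast markers, 9 had a mean log2 signal of 9 or more. The mean over these 11 ran from 10.90 to 11.12 over the WT arrays and from 11.01 to 11.26 over the KO arrays, and 4 of them were higher and 4 lower in KO. Of the fibroblast markers Thy1 was not above the array floor (mean log2 signal 8.10), and Lum was at 8.58. All 4 epithelial, all 4 endothelial and all 5 macrophage and blood markers lay below 9, with list means over arrays of at most 8.60, 8.36 and 8.67 in either line. Of the 4 muscle markers 3 lay below 9, as did 2 of the 4 neural markers. The neural marker Tubb3 was 0.85 higher in KO and Map2 was 0.21 lower, and the part of these markers in the results on proteasome genes was not tested.

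Across the array the lines differed widely. Of the 27500 probe sets tested, 52.9% passed the threshold (limma, Benjamini-Hochberg adjusted p of 0.05) for the KO minus WT difference averaged over the 5 times, 27.3% above 0 and 25.6% below. A count of proteasome genes is therefore given beside the share of all probe sets called in the same direction. Principal component 1 of the deviations from group means held 24 of the 30 arrays of experiments 1 to 3 on one side and 0 of the 18 arrays of experiments 4 and 5, so that values within these sets of experiments are given beside the pooled ones.

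The promoters of 4 of the genes are shown first, as examples: Psmb5, Psmd2 and Psmd4, which were higher in KO, and Psmg1, which was lower. RefSeq sequences of assembly GRCm38.p6 were found for 36 of the 44 genes. Each line gives the 250 bases before the start of transcription, 5′ to 3′, at chr14:54617996-54618245 (minus strand) for Psmb5, chr16:20651402-20651651 (plus strand) for Psmd2, chr3:95042615-95042864 (minus strand) for Psmd4 and chr16:95990961-95991210 (minus strand) for Psmg1. Capitals mark TGACNNNGC, the core of the antioxidant response element that Nfe2l1 and Nfe2l2 bind, CCGGAAG, a motif of ETS factors, and CCAAT, the motif of NF-Y, each on either strand (CTTCCGG and ATTGG are the reverse strand of the last pair).
Psmb5: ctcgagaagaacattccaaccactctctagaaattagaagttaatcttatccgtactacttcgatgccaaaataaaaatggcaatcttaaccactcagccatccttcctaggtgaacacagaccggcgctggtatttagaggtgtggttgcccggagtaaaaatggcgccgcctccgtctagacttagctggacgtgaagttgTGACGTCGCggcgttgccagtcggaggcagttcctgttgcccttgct
Psmd2: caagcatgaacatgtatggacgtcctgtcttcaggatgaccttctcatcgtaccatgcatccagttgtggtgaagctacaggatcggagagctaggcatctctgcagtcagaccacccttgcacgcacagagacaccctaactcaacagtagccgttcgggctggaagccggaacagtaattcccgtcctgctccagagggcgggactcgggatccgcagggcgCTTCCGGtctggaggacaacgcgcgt
Psmd4: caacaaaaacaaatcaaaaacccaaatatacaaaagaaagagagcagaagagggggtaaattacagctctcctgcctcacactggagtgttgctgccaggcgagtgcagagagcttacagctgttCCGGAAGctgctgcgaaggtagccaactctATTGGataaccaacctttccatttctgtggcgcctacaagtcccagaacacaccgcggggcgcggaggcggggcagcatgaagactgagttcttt
Psmg1: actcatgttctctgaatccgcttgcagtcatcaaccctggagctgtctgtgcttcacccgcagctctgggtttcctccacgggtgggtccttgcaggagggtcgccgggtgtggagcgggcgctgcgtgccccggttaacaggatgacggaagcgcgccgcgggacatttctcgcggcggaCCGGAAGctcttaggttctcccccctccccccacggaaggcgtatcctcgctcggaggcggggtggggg
The site in Psmb5, TGACGTCGC, begins 47 bases before the start. The ETS motif begins 26 bases before the start in Psmd2, 125 in Psmd4 and 69 in Psmg1, and Psmd4 also holds CCAAT 95 bases before its start. Other genes with differences among the largest differed in this. Psme1, Psmb4 and Psma5 held none of the marked motifs, and Psma1 held CCAAT alone.

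Over the windows of 300 bases (250 before and 50 after the start) CCGGAAG was the motif found in the most proteasome genes. It occurred in 14 of 36 (38.9%), against 9.93% of the 27025 genes in the promoter table and 18.2% of the 10474 of these genes that were tested on the array. Of the 24 matched genes that were higher in KO, 13 held it, among them Psmc1, Psmc6, Psmd2, Psmd4 and Psme4, and of the other 12 matched genes 1 held it, Psmg1. TGACNNNGC was present in 6 of 36 (16.7%), the same share as among the tested genes (16.7%), and all 6 (Psmb5, Psmb6, Psmc6, Psmd9, Psmd12 and Psme4) were among the 24 higher in KO. CCAAT was present in 13 of 36 (36.1%, against 43.0% of tested genes). AAGATGGC, the motif of YY1, and TATAAA were each present in 3 of 36 (8.33%), against 4.84% and 9.81% of tested genes. These motifs were searched on both strands as letters only, and no binding was measured. The 24 genes higher in KO are most of the 36 matched, and the other 12 include Psmb11, which was not tested. How many of all tested genes with each motif were higher in KO was not counted. A link between a motif and the difference between the lines was therefore not tested.

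Most proteasome genes had a higher signal in the KO line. Averaged over the 5 times, 28 of the 43 were higher in KO and 5 lower, and 10 did not pass. The median difference was 0.12 log2, against -0.0059 over all probe sets tested, where 27.3% were higher and 25.6% lower. Among the 2095 genes with a mean log2 signal of 10 or more, 42.4% were higher and 32.7% lower, with a median of 0.025. The RNA is that of whole cultures, so more RNA per cell and another mix of cells cannot be told apart. The differences were small in size, between -0.30 and 0.41 log2, which is at most 1.33-fold. KO lay above WT in all 5 experiments for 27 of the 43 genes (23.4% of all probe sets did) and below WT in all 5 for 3 genes (21.7% of all), namely Psmc3, Psmf1 and Psmg1.

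**Figure D1:**
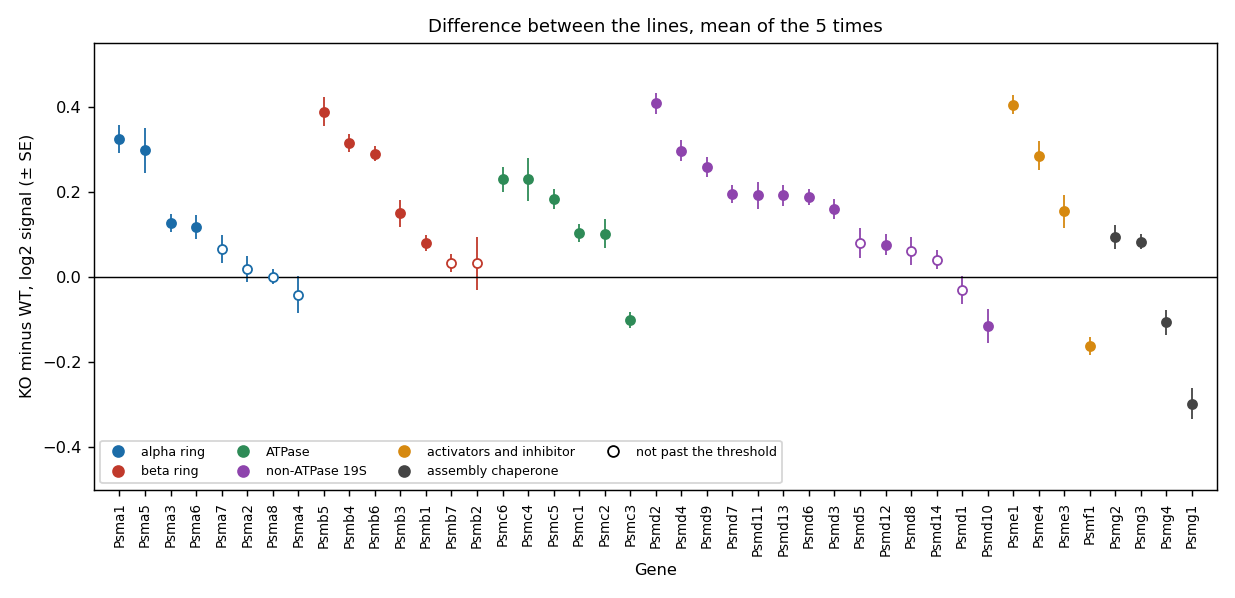
KO minus WT difference of log2 signal, mean over the 5 times, for the 43 proteasome genes tested, grouped by role. Points are limma estimates and bars their SE. Filled points passed an adjusted p of 0.05. The 28 genes past the threshold above 0 occur in each of the 6 role groups, and the 5 below 0 are Psmc3, Psmd10, Psmf1, Psmg1 and Psmg4.

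The counts by role that follow each hold few genes and stand against the shares of all probe sets, 27.3% higher and 25.6% lower, and of bright genes, 42.4% and 32.7%. In the alpha ring of the core, 4 of 8 genes were higher in KO and 0 lower, a share of higher genes near that of bright genes. Psma1 had log2 signals of 10.84, 10.83, 10.83, 10.88 and 10.70 in the WT arrays at 0 min and 11.05, 11.14, 11.17 and 11.17 in KO, so that each KO array lay above each WT array. Over all times Psma1 was 0.32 ± 0.033 (SE) higher in KO (limma adjusted p = 2.01e-11), and the differences by experiment ran from 0.27 to 0.45. Psma5 gave 10.80, 10.83, 10.76, 11.01 and 11.30 in WT at 0 min and 11.27, 11.26, 11.32 and 11.07 in KO. Its groups overlapped, since WT replicate 5 lay above KO replicates 1, 2 and 4, and KO replicate 4 lay near WT replicate 4. The pooled difference of Psma5 was 0.30 ± 0.053 (SE, adjusted p = 5.42e-06), but experiments 1 to 3 alone gave 0.48 (adjusted p = 1.13e-15), and the last 2 experiments, 4 and 5, gave 0.01 (adjusted p = 0.905). At 0 min alone Psma5 did not pass (0.29, adjusted p = 0.0763), and it did with the experiment as a block (0.35, adjusted p = 0.00506). Psma3 was 0.13 and Psma6 0.12 higher in KO. Psma7 (0.06), Psma2 (0.02), Psma8 (0.00) and Psma4 (-0.04) did not pass. Psma8 is a testis-enriched variant of the alpha ring, and its mean log2 signal of 8.52 lay near the array medians. With the experiment as a block Psma7 passed as well, at 0.07 (adjusted p = 0.0211).

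In the beta ring 5 of the 7 genes tested were higher in KO and 0 lower. Of the genes for the catalytic subunits, Psmb5 (chymotrypsin-like site) and Psmb6 (caspase-like site) were higher, and Psmb7 (trypsin-like site) gave 0.03 and did not pass. Psmb5 had log2 signals of 10.86, 10.80, 10.73, 10.65 and 10.46 in WT at 0 min and 11.14, 11.15, 11.10 and 11.16 in KO, with no overlap. The KO arrays of Psmb5 lay closer together than those of WT. Its difference over all times was 0.39 ± 0.035 (SE, adjusted p = 2.4e-13), or 1.31-fold, and it ran from 0.26 to 0.55 over the experiments. Psmb4, a non-catalytic beta subunit, gave 10.95, 10.99, 11.01, 11.03 and 10.98 in WT at 0 min and 11.40, 11.45, 11.40 and 11.22 in KO. The lines did not overlap for Psmb4 either, and the difference was 0.31 ± 0.021 (SE, adjusted p = 2.45e-17). It was 0.35 to 0.40 in experiments 1 to 3 and 0.20 in experiments 4 and 5. Psmb6 was 0.29 higher, with KO above WT in each array at each of the 5 times. Psmb3 was 0.15 and Psmb1 0.08 higher in KO, and Psmb2 gave 0.03 and did not pass. Psmb2 had the widest SE of the slope difference among the proteasome genes (0.085 log2 per h).

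Of the 6 ATPases of the regulatory particle, 5 were higher in KO and 1 was lower. Psmc6 and Psmc4 were each 0.23 higher, Psmc5 0.18 and Psmc1 and Psmc2 each 0.10, of which Psmc2 did not pass without replicate 3 (adjusted p = 0.129). Psmc3 was the exception, at -0.10 ± 0.019 (SE, adjusted p = 1.23e-05). It was lower in KO in 5 of 5 experiments, by values from -0.20 to -0.03, and in experiments 4 and 5 alone it did not pass (-0.03, adjusted p = 0.487).

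Of the 14 genes with Psmd symbols, 9 were higher in KO, 1 was lower and 4 did not pass. These are the non-ATPase subunits of the regulatory particle, together with Psmd5, Psmd9 and Psmd10, which are known as assembly chaperones of its base. Psmd2, the scaffold of the base to which ubiquitin shuttles dock, had the largest difference of the 43 genes. Its log2 signals at 0 min were 10.42, 10.40, 10.11, 10.19 and 10.01 in WT and 10.62, 10.69, 10.60 and 10.67 in KO, without overlap. Over all times Psmd2 was 0.41 ± 0.025 (SE, adjusted p = 2.05e-18) or 1.33-fold higher in KO, and it was 0.35 to 0.45 higher in each experiment. Psmd4, a ubiquitin receptor, gave 10.32, 10.32, 10.34, 10.19 and 10.29 in WT at 0 min and 10.72, 10.68, 10.74 and 10.47 in KO. The lines did not overlap, KO replicate 4 was the lowest of its group, and the difference over all times was 0.30. Experiments 1 to 3 gave 0.36 and experiments 4 and 5 gave 0.17, past the threshold in both. Psmd9 (0.26), Psmd7, Psmd11, Psmd13 and Psmd6 (each 0.19), Psmd3 (0.16) and Psmd12 (0.07) were also higher, Psmd12 not without replicate 3 (adjusted p = 0.115). Psmd14, the deubiquitinase of the lid, gave 0.04 and did not pass, nor did Psmd8 (0.06), Psmd1 (-0.03) and Psmd5 (0.08, adjusted p = 0.0541). With the experiment as a block Psmd14 (0.04, adjusted p = 0.0317), Psmd5 (0.09, adjusted p = 0.00377) and Psmd8 (0.05, adjusted p = 0.0495) passed. Psmd10 was lower in KO, at -0.12 ± 0.040 (SE, adjusted p = 0.0127). That call was lost without replicate 1 (-0.09, adjusted p = 0.115) and without replicate 2 (-0.09, adjusted p = 0.0893). Experiments 4 and 5 taken alone gave -0.04 (adjusted p = 0.621).

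The 3 activator genes were higher in KO and the inhibitor gene was lower. Psme1, the alpha subunit of the activator that assists peptide production for antigen presentation, gave 10.56, 10.55, 10.51, 10.55 and 10.39 in WT at 0 min and 10.92, 10.95, 10.88 and 11.02 in KO. No arrays overlapped, and Psme1 was 0.40 ± 0.023 (SE, adjusted p = 5.05e-20) or 1.32-fold higher in KO over all times, by 0.30 to 0.47 in each experiment. Psme4, the large single-chain activator of the nucleus, was 0.28 higher and Psme3, the nuclear relative of Psme1, 0.15 higher. Psmf1, known as an inhibitor of the core in vitro, was lower in KO. Its log2 signals were 9.11, 9.18, 9.16, 9.19 and 9.13 in WT at 0 min against 8.997, 8.98, 8.89 and 9.24 in KO, where replicate 4 lay above all WT arrays. At 120 min WT gave 9.53, 9.37, 9.36, 9.36 and 9.26 and KO 9.11, 9.11, 9.11, 9.19 and 9.18, without overlap. Over all times the difference of Psmf1 was -0.16 ± 0.021 (SE, adjusted p = 4.86e-09). It was lower in 5 of 5 experiments, by -0.22 in experiments 1 to 3 and by -0.05 in experiments 4 and 5, where it did not pass (adjusted p = 0.115).

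The 4 chaperones that build the alpha ring were split, 2 higher and 2 lower in KO, within each of the 2 pairs in which they work. Psmg1 is the partner of Psmg2, and Psmg3 of Psmg4. Psmg1 had log2 signals of 9.65, 9.61, 9.42, 9.64 and 9.72 in WT at 0 min and 9.38, 9.24, 9.26 and 9.40 in KO, each KO array below each WT array. Over all times it was lower in KO by -0.30 ± 0.037 (SE, adjusted p = 1.71e-09), and this was -0.29 both in experiments 1 to 3 and in experiments 4 and 5. Its partner Psmg2 was 0.09 higher in KO, but did not pass in experiments 1 to 3 alone (0.06, adjusted p = 0.161). Psmg3 was 0.08 higher, and Psmg4 was lower by -0.11 ± 0.030 (SE, adjusted p = 0.00205). Psmg4 did not pass without replicate 1 (-0.08, adjusted p = 0.0511), and in experiments 4 and 5 its difference was 0.02 (adjusted p = 0.679).

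**Figure D2:**
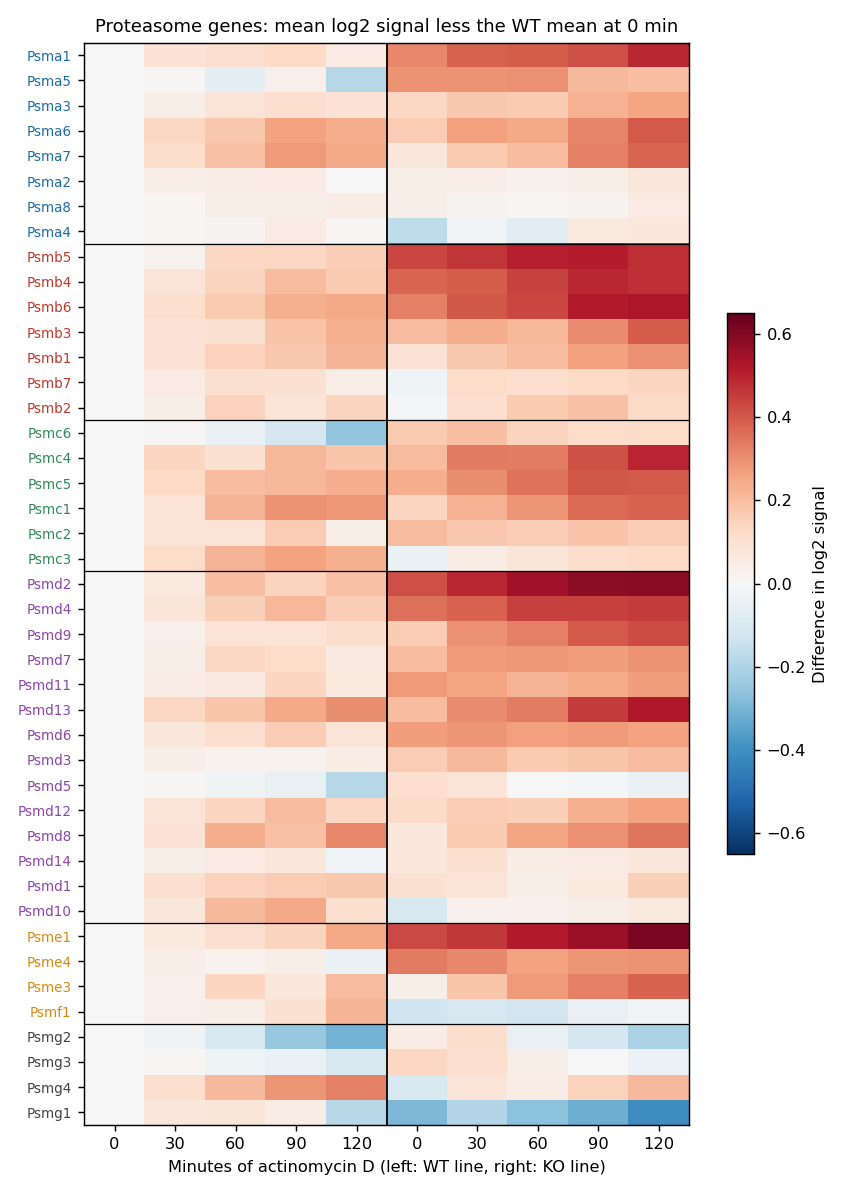
Mean log2 signal of each proteasome gene in the 10 groups, less its own WT mean at 0 min (colour, log2), with the WT line on the left and the KO line on the right. Genes are coloured by role in the order alpha ring, beta ring, ATPases, non-ATPase subunits, activators and inhibitor, and chaperones. The KO side is redder for most genes already at 0 min, by up to 0.44 for Psmb5, and Psmg1 is blue throughout it.

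Before actinomycin D, at 0 min, the picture was the same in direction with fewer calls. Of the 43 genes 20 were higher in KO and 2 lower, against 13.4% and 11.9% of all probe sets tested (25.3% in either direction), and the median difference was 0.14. Among the genes of mean log2 signal 10 or more, 23.4% were higher and 17.5% lower at 0 min. With the experiment as a block 25 of the 43 were higher (17.9% of all probe sets), the added genes being Psma5, Psma6, Psmc4, Psmc6 and Psmd12. The 6 largest were Psmb5 at 0.44 ± 0.080 (SE, adjusted p = 3.19e-05), Psme1 at 0.43 ± 0.052 (adjusted p = 8.76e-09), Psmd2 at 0.42 ± 0.059 (adjusted p = 1.99e-07), Psmb4 at 0.38 ± 0.049 (adjusted p = 3.61e-08), Psmd4 at 0.36 ± 0.058 (adjusted p = 4.22e-06) and Psme4 at 0.34 ± 0.078 (adjusted p = 0.00076). Psme4 had log2 signals of 10.43, 10.65, 10.62, 10.55 and 10.54 in WT and 10.89, 10.91, 10.97 and 10.82 in KO, without overlap. Experiments 4 and 5 include just 1 KO array at this time, whose spread the fit takes from the other groups, and there Psmd4 gave 0.23 (adjusted p = 0.0944). The lower genes were Psmg1, at -0.29 ± 0.085 (SE, adjusted p = 0.00812), and Psmf1, at -0.13 ± 0.048 (adjusted p = 0.0408). The call on Psmf1 was lost without replicate 1 (adjusted p = 0.09), replicate 2 (adjusted p = 0.24), replicate 3 (adjusted p = 0.334) or replicate 5 (adjusted p = 0.0518), and in experiments 4 and 5 its difference, again with 1 KO array, was 0.07. In all 17 genes had each KO array above each WT array at 0 min (9.62% of all probe sets did) and 1, Psmg1, had each below (8.34%).

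The difference lasted through the time course. At 30 min 18 of the 43 genes were higher in KO and 2 lower (3992 and 3294 of the 27500 probe sets), at 60 min 16 and 3 (10.8% and 12.8%), at 90 min 16 and 3 (13.8% and 13.5%) and at 120 min 20 and 2 (18.7% and 13.4%). Among genes of mean log2 signal 10 or more, 22.6% were higher and 19.8% lower at 30 min, and 20.1% and 20% at 60 min. The shares of these bright genes were 23% and 22.1% at 90 min and 31.9% and 15.7% at 120 min. At 120 min 15 genes had each KO array above each WT array (12.7% of all) and 1, Psmf1, had each below (8.26%). At all 5 times the KO arrays lay above all WT arrays for 6 genes, Psmb4, Psmb5, Psmb6, Psmd2, Psmd4 and Psme1, and below at all 5 times for 0 genes. Of all probe sets 4.49% lay above and 3.97% below at all 5 times. Psmf1 lay below at 4 of the 5 times and Psmg1 at 3.

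The arrays at 120 min are given for the 6 genes whose lines did not overlap at any time, for Psma1, which had the largest difference at this time, and for Psmg1. Psma1 gave log2 signals of 10.65, 10.82, 10.76, 11.04 and 11.07 in WT and 11.22, 11.21, 11.37, 11.34 and 11.40 in KO, a difference of 0.44 ± 0.073 (SE, limma adjusted p = 5.39e-06). Psmd2 gave log2 signals of 10.45, 10.34, 10.45, 10.49 and 10.36 in WT and 10.82, 10.88, 10.81, 10.84 and 10.72 in KO. Psme1 gave 10.74, 10.78, 10.83, 10.79 and 10.65 in WT and 11.14, 11.09, 11.15, 11.18 and 11.06 in KO. For both Psmd2 and Psme1 the lowest KO array stood 0.2 log2 or more above the highest WT array. Psmb5 gave 11.05, 10.78, 10.95, 10.80 and 10.72 in WT and 11.19, 11.21, 11.19, 11.16 and 11.13 in KO, where WT replicate 1 came nearest to the KO arrays. Psmb4 gave 11.15, 11.08, 11.15, 11.21 and 11.22 in WT and 11.48, 11.57, 11.53, 11.36 and 11.39 in KO. Psmb6 gave 11.04, 11.05, 11.07, 11.12 and 11.09 in WT and 11.28, 11.39, 11.36, 11.37 and 11.39 in KO. Psmd4 gave 10.34, 10.39, 10.49, 10.45 and 10.61 in WT and 10.74, 10.83, 10.81, 10.62 and 10.75 in KO, where WT replicate 5 and KO replicate 4 nearly met. None of these 7 genes had overlapping arrays. Psmg1 gave 9.35, 9.33, 9.28, 9.53 and 9.65 in WT and 9.07, 9.10, 9.22, 9.28 and 9.34 in KO. Its lines overlapped at this time, since KO replicate 4 lay above WT replicate 3 and KO replicate 5 above WT replicates 2 and 3.

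**Figure D3:**
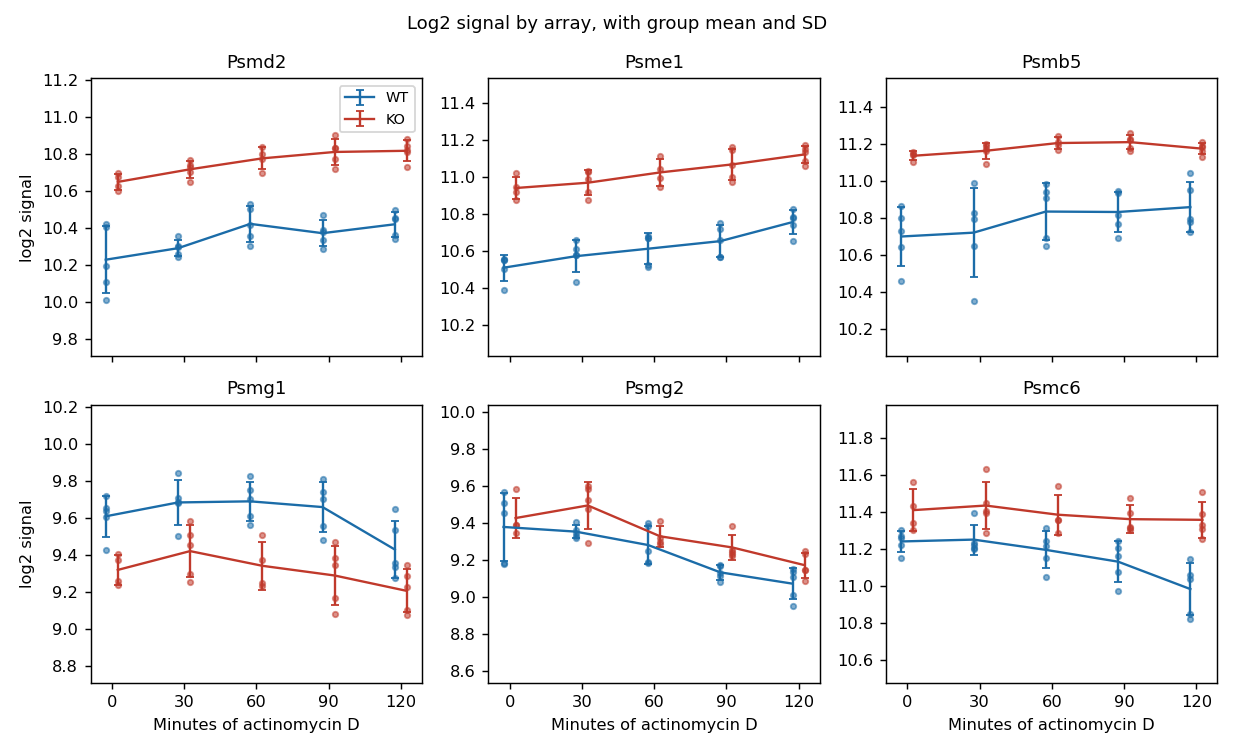
Log2 signal by array against minutes of actinomycin D for 6 proteasome genes, WT in blue and KO in red, with lines through the group means and bars of SD (4 or 5 arrays a group). The lines stay apart for Psmd2, Psme1 and Psmb5 with KO above and for Psmg1 with KO below, while Psmg2 falls in both lines and Psmc6 falls in WT.

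After actinomycin D most proteasome transcripts kept or raised their share of the array signal. Slopes were fitted as straight lines over the 5 times in each line, in log2 per h. Because signals are scaled within an array, a slope above 0 can be a smaller fall than that of the average transcript. In WT 21 of the 43 genes had a slope above 0 and 4 below 0 (13.9% and 15.1% of all probe sets, 29% in either direction), with a median of 0.08 against 0.016 over all probe sets. In KO 21 were above and 2 below (15% and 12.3% of all, 27.3% in either direction), with a median of 0.06 against 0.006. Among the genes of mean log2 signal 10 or more, 29.7% rose and 12.7% fell in WT, and 33.9% and 9.26% in KO. The median slopes of these bright genes were 0.044 in WT and 0.055 in KO, the latter near the 0.06 of the proteasome genes. Fits without the arrays at 0 min called fewer rises, 9 genes in WT and 7 in KO, and likewise fewer among all probe sets, 4.46% in WT and 6.14% in KO. In these fits the medians of the proteasome genes were 0.04 in WT and 0.05 in KO. Between the sets of experiments the slopes moved in opposite ways. In WT, experiments 1 to 3 gave a median of 0.04 and 14 rises among the 43 genes (8.09% of all probe sets rose), and experiments 4 and 5 gave 0.11 and 26 rises (18.3% of all). In KO the first set gave 0.07 and 20 rises (14.1% of all) and the other 0.05 and 5 rises (5.32% of all). Centring the arrays on 44 ribosomal protein genes left 10 rises and 5 falls in KO (5.86% and 24.1% of all probe sets). It lowered the medians of the 43 genes to 0.05 in WT and 0.03 in KO. The medians over all probe sets were lowered as well, to -0.012 in WT and -0.030 in KO. With the experiment as a block, 4 genes fell in KO (14.4% of all probe sets), Psmd5 and Psmg1 being added (-0.09 per h each, adjusted p = 0.00545 and 0.0123).

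Rises were seen among core subunits, ATPases, genes with Psmd symbols, activators, the inhibitor Psmf1 and Psmg4, a chaperone of the alpha ring. The Psmd genes that rose include Psmd9, a chaperone of the base, in KO (limma adjusted p = 5.01e-05). Psmc1, an ATPase, had log2 signals of 10.48, 10.49, 10.31, 10.34 and 10.23 in WT at 0 min and 10.63, 10.59, 10.62, 10.71 and 10.71 at 120 min. In KO it went from 10.53, 10.54, 10.45 and 10.52 to 10.72, 10.82, 10.72, 10.74 and 10.77. In both lines each array at 120 min lay above each array at 0 min. The slope of Psmc1 was 0.15 ± 0.021 per h in WT (SE, adjusted p = 5.44e-08) and 0.13 in KO. Psmd13, a subunit of the lid, gave 9.63, 9.67, 9.62, 9.55 and 9.43 in WT at 0 min and 9.80, 9.90, 9.90, 9.87 and 9.93 at 120 min. In KO it gave 9.74, 9.76, 9.77 and 9.87 at 0 min and 10.01, 10.09, 10.06, 10.16 and 10.19 at 120 min. These groups did not overlap in time in either line, and the slopes were 0.14 ± 0.023 in WT (adjusted p = 2.87e-06) and 0.16 ± 0.024 in KO (adjusted p = 1.1e-06).

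Psmg4 had the steepest rise in WT, 0.17 ± 0.028 per h (SE, adjusted p = 6.5e-06), from a low signal. It went from 9.14, 9.18, 8.83, 9.09 and 8.80 at 0 min to 9.37, 9.26, 9.42, 9.40 and 9.22 at 120 min, without overlap. In KO its slope was 0.13 ± 0.030 (adjusted p = 0.000533), and without the 0 min arrays this was 0.09 (adjusted p = 0.0599). Psmd8, a lid subunit, rose by 0.14 ± 0.032 in WT (adjusted p = 0.000345) and 0.13 ± 0.033 in KO (adjusted p = 0.00147), in KO not without the 0 min arrays (0.12, adjusted p = 0.0624). Psma7 of the alpha ring rose by 0.13 ± 0.031 in WT (adjusted p = 0.000647) and 0.15 ± 0.032 in KO (adjusted p = 0.000243), in WT not without the 0 min arrays (0.10, adjusted p = 0.156). Psmb6 rose by 0.12 ± 0.017 in WT (adjusted p = 3.12e-08).

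In KO the steepest rise was that of Psme3, 0.16 ± 0.039 per h (SE, adjusted p = 0.000989). Its KO arrays gave 9.81, 9.76, 9.62 and 9.98 at 0 min and 10.23, 10.21, 10.30, 10.11 and 9.82 at 120 min. These overlap, because replicate 5 at 120 min lay below replicate 4 at 0 min. In experiments 4 and 5 the KO slope of Psme3 was 0.06 (adjusted p = 0.529), and without the 0 min arrays 0.13 (adjusted p = 0.0779). The KO slope of the ATPase Psmc4 was 0.13 ± 0.049 (adjusted p = 0.0471), a call lost without replicate 1 (adjusted p = 0.119), replicate 2 (adjusted p = 0.093), replicate 3 (adjusted p = 0.123) or replicate 5 (adjusted p = 0.066). In WT the slope of Psmc4 was 0.09 and did not pass, but did with the experiment as a block (0.09, adjusted p = 0.0102). The KO slopes of Psma7 (0.14, adjusted p = 0.104), Psmd8 (0.10, adjusted p = 0.0895) and Psmg4 (0.07, adjusted p = 0.253) did not pass in experiments 4 and 5. Of the 23 slopes called in KO, 6 also passed in experiments 1 to 3 and in experiments 4 and 5 taken alone, as did 14 of the 25 called in WT. All 23 and all 25 had the same sign in both sets. These slopes were picked by the fit to both sets together, so their shared sign is not a separate test. The same counts over all probe sets were not made.

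The falls were those of chaperones and of 1 ATPase. Psmg2 fell in both lines. It went from 9.51, 9.57, 9.18, 9.45 and 9.18 in WT at 0 min to 9.01, 9.13, 8.95, 9.15 and 9.11 at 120 min, and from 9.39, 9.34, 9.39 and 9.58 in KO to 9.15, 9.24, 9.14, 9.23 and 9.08. The arrays at 120 min lay below those at 0 min in both lines. The slopes of Psmg2 were -0.17 ± 0.028 in WT (SE, adjusted p = 3.99e-06) and -0.15 ± 0.029 in KO (adjusted p = 5.31e-05). Psmg3, close to the floor, went from 8.85, 8.77, 8.94, 8.84 and 8.79 to 8.69, 8.77, 8.71, 8.77 and 8.74 in WT, where 0 and 120 min met at 8.77. In KO it went from 8.94, 9.02, 8.99 and 8.94 to 8.80, 8.77, 8.85, 8.82 and 8.76, without overlap. Its slopes were -0.05 ± 0.016 in WT (adjusted p = 0.0123) and -0.09 ± 0.017 in KO (adjusted p = 5.16e-05). In WT the call on Psmg3 was lost without replicate 1 (adjusted p = 0.0796), without replicate 3 (adjusted p = 0.0979) and with arrays centred on their medians (adjusted p = 0.0675). On these arrays falls toward the floor are compressed.

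Psmc6 fell in WT, from 11.27, 11.30, 11.15, 11.22 and 11.26 at 0 min to 10.82, 11.04, 10.85, 11.06 and 11.14 at 120 min, without overlap. In KO it gave 11.30, 11.34, 11.56 and 11.43 at 0 min and 11.25, 11.33, 11.31, 11.39 and 11.51 at 120 min, which overlap. The WT slope was -0.13 ± 0.028 per h (SE, adjusted p = 0.000389) and the KO slope -0.04 (adjusted p = 0.404). The difference between these slopes, 0.090 ± 0.041, did not pass (adjusted p = 0.518). The other probe sets of Psmc6 gave WT slopes of 0.02 (adjusted p = 0.67) and 0.04 (adjusted p = 0.54), and the mean over its probe sets gave -0.02 (adjusted p = 0.599), so the fall was seen with the brightest probe set alone. In experiments 4 and 5 it did not pass (-0.07, adjusted p = 0.122). Psmd5, a chaperone of the base, had a WT slope of -0.08 ± 0.033 (adjusted p = 0.0477) and a KO slope of -0.08 (adjusted p = 0.081). Its WT call was lost without replicate 1 (adjusted p = 0.318), replicate 2 (adjusted p = 0.0974) or replicate 4 (adjusted p = 0.0657). Psmg1 had a slope of -0.08 in each line and passed in neither (adjusted p = 0.131 in WT and 0.152 in KO). With the experiment as a block it passed in both, in WT with an adjusted p of 0.0291.

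**Figure D4:**
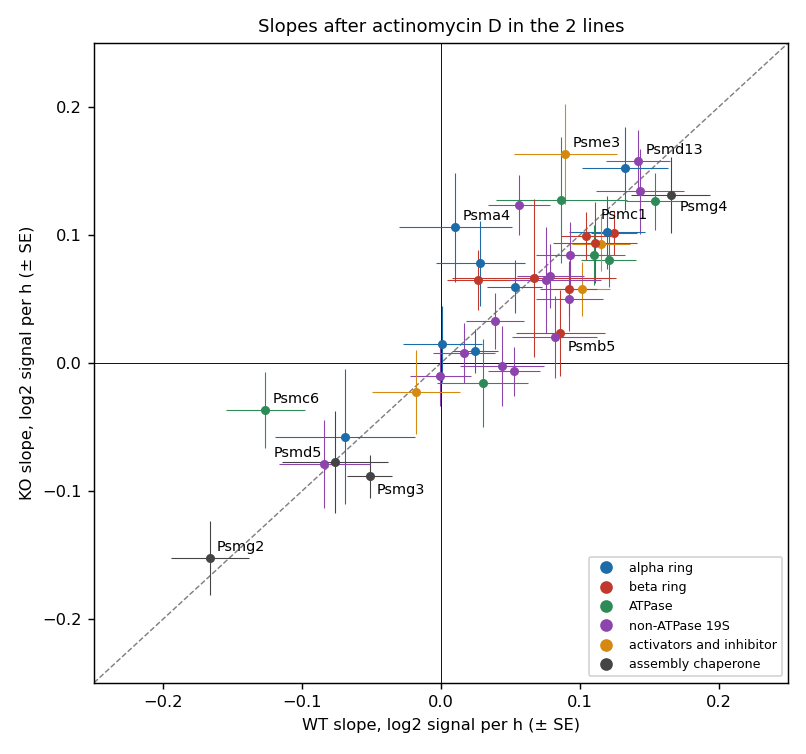
Slope of log2 signal per h in KO against the slope in WT for the 43 proteasome genes, coloured by role, with bars of SE and a dashed line of equality. Psmg2, Psmg3 and Psmd5 lie below 0 in both lines, Psmg4, Psmc1 and Psmd13 at the upper right, and no gene lies off the dashed line by an amount that passed the test.

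The slopes did not separate the lines. For the difference KO minus WT, the measure of slower decay without TTP, 0 of the 43 genes passed in either direction by limma, against 1.04% of all probe sets (0.785% above 0 and 0.251% below), and 3 of the 43 had an unadjusted p under 0.05. Experiments 1 to 3 alone gave a median slope difference of 0.013 over the 43 genes, while experiments 4 and 5 gave -0.056. The differences lay between -0.063 and 0.096 log2 per h. The highest were Psma4 (0.096 ± 0.059, SE, adjusted p = 0.686) and Psmc6, and the lowest Psmb5 (-0.063 ± 0.046, adjusted p = 0.752) and Psmd1 (-0.061 ± 0.044, adjusted p = 0.746). Psma4 gave 10.93, 10.76, 10.76 and 11.10 in KO at 0 min and 10.87, 10.98, 11.15, 11.29 and 11.30 at 120 min, with overlap, and 10.99, 10.94, 11.08, 11.19 and 11.04 against 10.96, 11.07, 10.88, 11.13 and 11.23 in WT. The estimate with 2 SE to either side lay within 0.2 log2 per h of 0 for 42 of the 43 genes, and the limits over all 43 ran from -0.17 to 0.21. Each of these limits is that of a single gene, and the median SE over the 43 was 0.040. With the experiment as a block the count was also 0 (1.51% of all probe sets above 0 and 0.436% below).

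Where a gene had further probe sets of mean log2 signal 9 or more, these mostly gave the same difference between lines. There were 21 such probe sets for 16 of the genes, and 20 had the sign of the brightest one for the difference over all times. Psme4 gave 0.28, 0.30 and 0.32 with its 3 probe sets, and Psma5 0.30 and 0.38. Of the 20 whose brightest probe set was called, 16 were called in the same direction and 1 in the opposite one. The opposite one was a probe set of Psmd11, a lid subunit, at -0.16 (adjusted p = 0.00012) against 0.19, 0.15 and 0.11 with the others. For the slopes the further probe sets followed the brightest one less closely. In WT 19 of the 21 had its sign, and 7 of the 12 whose brightest probe set was called were called in the same direction. In KO 12 of the 21 had its sign and 7 of 10 were called alike, and in neither line was a probe set called in the opposite direction. For the slope difference 14 of the 21 had the same sign. The brightest probe sets of Psma6 and Psmc2 are of a class that may cross-hybridise by the platform's naming, and their other probe sets gave 0.20 and 0.13 for Psma6 and 0.15 for Psmc2.

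Other genes of the pathway were taken from lists. Of the immunoproteasome genes, which replace catalytic beta subunits in antigen-presenting cells, Psmb10, the counterpart of Psmb7, was 0.27 ± 0.030 (SE) higher in KO over all times (adjusted p = 2.38e-10) and rose by 0.15 per h in WT. Psmb8, the counterpart of Psmb5, did not pass (adjusted p = 0.875), and Psmb9, the counterpart of Psmb6, was not above the filter. Of 8 measured genes that assemble or accompany the proteasome, 3 were higher in KO and 0 lower, with a median of 0.10. Of all probe sets 27.3% were higher and 25.6% lower, so the count of higher genes is near that share. These were Akirin2, which brings proteasomes into the nucleus (0.22, adjusted p = 6.94e-10), Pomp, the chaperone of the beta ring (0.21, adjusted p = 1.15e-09), and the phosphatase Ublcp1 (0.16, adjusted p = 0.0021). Akirin2 stood apart from the subunits after actinomycin D. Its slope was -0.63 ± 0.030 per h in WT (adjusted p = 2.22e-23) and -0.57 ± 0.031 in KO (adjusted p = 9.1e-21).

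All 8 measured genes of ubiquitin shuttles and of the Vcp segregase, which unfolds ubiquitinated proteins ahead of the proteasome, differed between the lines, 6 higher and 2 lower in KO (27.3% and 25.6% of all probe sets), with a median of 0.22. The largest were the shuttle Ubqln2 (0.55, adjusted p = 5.58e-19), the Vcp cofactor Ufd1 (0.31, adjusted p = 8.28e-14), Vcp itself (0.25, adjusted p = 7.77e-12) and Ubqln4 (0.24, adjusted p = 6.07e-10), while Nsfl1c (-0.17) and Ubqln1 (-0.06) were lower. Of 7 measured genes for the transcription of proteasome genes, 3 were higher and 2 lower, with a median of -0.0085. These counts too lie near the shares of all probe sets. Ngly1, the enzyme that removes sugars from Nfe2l1 and so activates it, was 0.28 higher (adjusted p = 5.59e-11) and Nfe2l1 itself 0.12 higher (adjusted p = 0.000201). The NF-Y subunits were split, with Nfya at 0.16, Nfyb at -0.11 and Nfyc at -0.16. In WT Ngly1 fell by 0.28, Nfe2l2 by 0.24 and Nfya by 0.22 log2 per h. Of 6 genes for ubiquitin and its activation 1 was measured with a probe set of its own symbol, Uba6, and it did not pass for any of these differences. None of these genes passed for the slope difference.

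**Figure D5:**
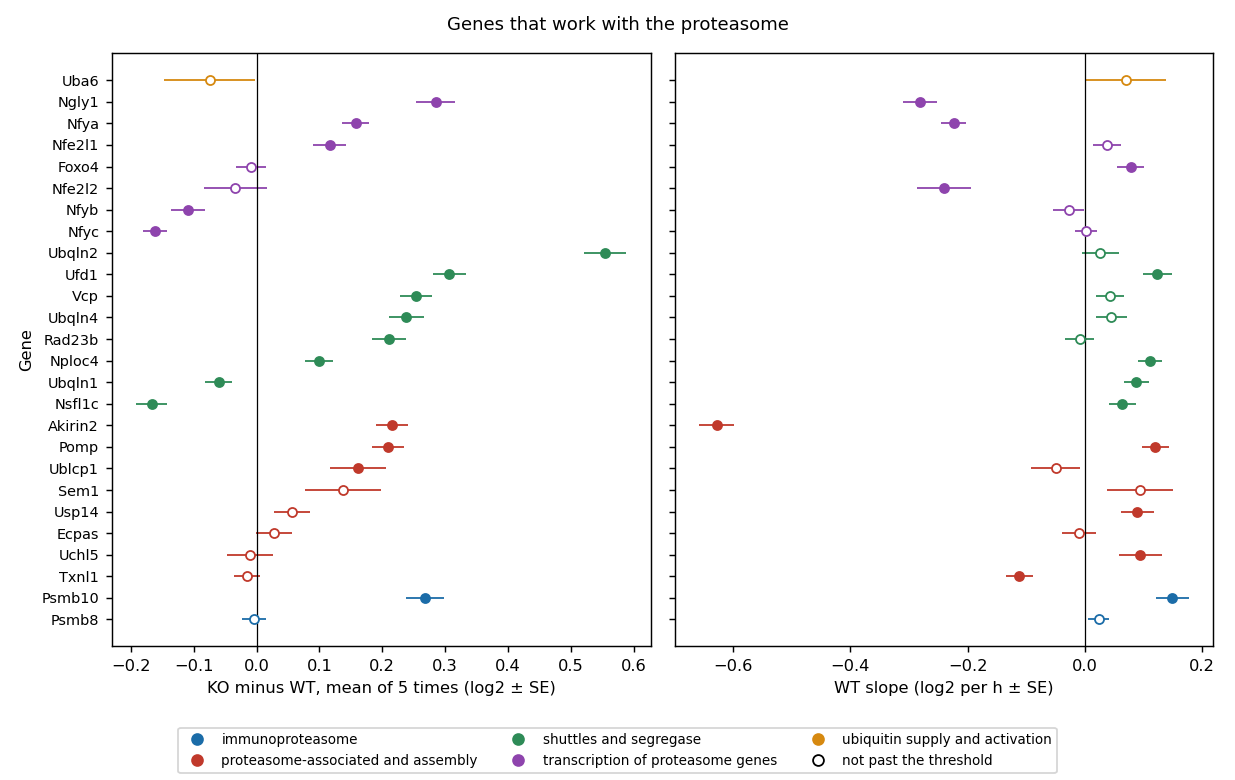
Genes that work with the proteasome, by list, with the KO minus WT difference over the 5 times on the left and the WT slope on the right (limma estimates, bars of SE, filled where the adjusted p was under 0.05). Ubqln2 lies furthest to the right on the left panel at 0.55, and Akirin2 furthest to the left on the right panel at -0.63 per h.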

How the data were processed

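The authors deposited log2 signals per probe set and array. Their log base was read from their range, and no source used here states how probes were summarised or arrays scaled. Per the labels, a Fluidics Station FS450 and a Scanner 3000 were used, with GeneChip Operating Software 1.2.0.037. Of 45101 probe sets, 64 controls were left out, and the 27500 above the array median in at least 4 arrays were tested by limma 3.58.1 (R 4.3.3, data.table package 1.17.8) over all 48 arrays, with trended and robust variance moderation. Group differences came from 1 mean per group, and slopes from straight lines on time per line. Tests were two-sided, with Benjamini-Hochberg adjustment over the 27500 and a threshold of 0.05. Array pairs with identical values numbered 0. The fit was tested on simulated data in which arrays varied independently, without differences between experiments. Error rates on the real arrays were not checked by it.

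Replicate numbers name the experiment, per the series text, which pairs the lines by day. In 16 of 23 such pairs the deviations from group means correlated above 0.1, with a median of 0.17 and a range of -0.25 to 0.60. P-values rest on the spread of single arrays about the fitted values. Arrays of the same experiment were taken as independent. Variation of a line difference between experiments, as seen for Psma5, is therefore not fully counted. P-values over all times and of slopes can be too small for this reason. The number of arrays limits the precision.

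Promoters came from RefSeq, GRCm38.p6. Genes named are the 6 highest and 6 lowest called per comparison (or the 2 most extreme where 0 passed), the brightest and dimmest of each role group, and 4 called genes per pathway list. Other values were named for completeness. The genes and lists were chosen with earlier results of these data known. Samples of serum-deprived cells are not analysed here.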

Additional observations from a re-analysis of the deposited data

Results flagged for a closer look

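Of 115 groups of arrays or of experiment differences examined for the 26 named proteasome genes, 2 held a value far from the others, and chance gives about 1 in 20. Psma7 at 0 min in WT had its replicate 4 at a log2 signal of 10.502, with the other 4 arrays between 10.61 and 10.635. Psma1 had a KO minus WT difference of 0.45 in experiment 3, with the other 4 experiments between 0.27 and 0.31.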

How the results depend on the processing

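Counts refer to the 43 proteasome genes tested. The slope difference called 0 genes in either direction in every alternative run. Genes higher in KO over all times numbered 24 to 33 over the alternatives (28 in the results above; 26 to 29 leaving out 1 replicate), and at 0 min 15 to 25 (20 above; 14 to 20). Genes lower over all times numbered 1 in experiments 4 and 5 and 3 to 5 leaving out 1 replicate, against 5. At 0 min 1 gene was lower, against 2, with quantile normalisation, ribosomal protein centring, no filter or experiments 4 and 5 alone, and 1 to 2 leaving out 1 replicate. Rises in WT numbered 9 without the 0 min arrays (4.46% of all probe sets), against 21 and 13.9% of all (17 to 21 genes leaving out 1 replicate). Falls in WT numbered 2 with median centring (13.2% of all) or the mean of all probe sets (15.1%) and 1 in experiments 4 and 5 (14.9%). This stands against 4 and 15.1% of all (2 to 4 genes leaving out 1 replicate). Rises in KO numbered 13 with quantile normalisation (15.8% of all) and 10 with ribosomal protein centring (5.86%). They numbered 5 in experiments 4 and 5 (5.32%) and 7 without the 0 min arrays (6.14%). This stands against 21 and 15% of all (15 to 18 genes leaving out 1 replicate). Falls in KO numbered 5 with quantile normalisation (11.8% of all) or ribosomal protein centring (24.1%) and 4 with the replicate block (14.4%). This stands against 2 and 12.3% of all (2 to 3 genes leaving out 1 replicate). The cause of these shifts was not tested, and neither was the part of the fewer arrays in experiments 4 and 5. In experiments 4 and 5 the difference of Psmg4 over all times turned to 0.0243 and that of Psmf1 at 0 min to 0.0745, where the 1 KO array is assumed to vary like the other groups.

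The replicate block (experiment as a factor) called 32 genes higher and 5 lower over all times, 25 and 2 at 0 min, 25 rises and 5 falls in WT and 23 and 4 in KO, and it kept every call of the fit without it. Beyond the calls added with the block it changed no other call. Log2 signals near the array floor compress falls.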
